A study of Mus musculus with 12 samples.

Results

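Genes that mark haematopoietic stem and progenitor cells were followed through the maturation of cultured mouse basophils: Cd34, Kit, Angpt1, Myb, Sox4, Meis1, Hoxa9, Flt3 and Cd33. These 9 genes, out of 31301 gene symbols in the table, were listed by name as progenitor genes lost on maturation, and Angpt1 was chosen by its counts, which were lower in the mature cells of these same libraries. The difference between immature and mature cells therefore helped to choose them, and it is given below as a description with no test. All 9 had a row, and 7 passed the filter on low counts, which Kit and Flt3 did not. The name held for only some of them. Angpt1, Myb, Cd34 and Hoxa9 were higher in every immature library than in every mature one in both cultures, and Sox4 was so in the IL-3 culture alone. Meis1 was higher in mature cells with IL-3 and overlapped with TSLP, Cd33 was higher in mature cells in both cultures, and Kit and Flt3 were too sparse at both stages to show a loss.

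Bone marrow cells of wild-type C57BL/6J mice were cultured for 7 days with interleukin-3 (IL-3, 0.3 ng/mL) or with thymic stromal lymphopoietin (TSLP, 1 µg/mL), both of which drive basophil growth. The labels disagree on the unit of the TSLP dose, and that of the treatment protocol is used. Bone marrow-derived basophils (BMBAs), which the study gates as CD200R3+ c-Kit-, were sorted into FcεRIαhi CD49blo cells (immature, the pre-basophils of the study) and FcεRIαlo CD49bhi cells (mature). This gave 4 groups of 3 libraries with no genetic change, named by cytokine and stage. The age of the mice is not given in the sources used here. Per the study, the 3 libraries of a group came from 3 cultures, so the p values measure the spread between cultures. Whether the immature and mature cells of a number came from 1 culture is not given in the sources used here.

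Total counts ran from 1720065 to 3685285 per library, and levels are given as CPM, the usual depth-scaled counts, with library sizes corrected by the edgeR TMM factors. A single count was worth less than 1 CPM in every library. The summed level of 7 basophil markers (Mcpt8, Prss34, Cd200r3, Fcer1a, Itga2, Ms4a2 and Csf2rb) lay between 12865 and 42197 CPM, while that of 7 mast cell markers was 657 to 3232 CPM. Most of the latter was Cpa3, a protease gene that basophils share, and the mast cell genes Tpsab1 and Mrgprb2 had no count in any library. Over all libraries Tpsb2 held 40 counts, Cma1 20, Mrgprb1 18 and Mcpt4 3. Library 1 of TSLP mature stood apart. Its counts differed from those of the other two by 44.1 and 55.4 chi-square units per degree of freedom, against 2.12 to 13.6 for all other pairs within a group. It held 781 CPM of 8 neutrophil markers against 46.0 and 38.8, and 136 CPM of 7 B lineage markers against 14.8 and 17.5. Where leaving it out ended a call or moved a called value by over 1.5 times, the value without it or the range over left-out libraries is given. In bulk RNA of sorted cells, fewer cells of a type and less RNA per cell cannot be told apart.

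Haematopoietic progenitors are held in an immature, dividing state by a shared set of regulators. MYB, SOX4, HOXA9 and its partner MEIS1 act in the nucleus. KIT and FLT3 are receptor tyrosine kinases for stem cell factor and FLT3 ligand, CD34 is a sialomucin of the progenitor surface, and CD33 is a sialic acid-binding lectin of the Siglec family used as a myeloid marker. Angiopoietin-1, the product of Angpt1, is the ligand of the receptor TIE2 and is made by stem cells among others. Basophils arise from granulocyte progenitors in the bone marrow and lose surface KIT on the way, whereas mast cells keep it.

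The promoters of these genes are shown first because several members moved together between the stages while others did not. RefSeq promoter windows (assembly GRCm38.p6, from 250 bases before to 50 after the annotated start) were matched by symbol for 8 of the 9 genes. The motifs, chosen with the expression results known, were searched on both strands. These were GGCGGGA for E2F, found in 11.3% of all 32851 windows, TAACNG for MYB in 23.3%, AGATAA for GATA in 11.2%, TGTGGT for RUNX in 16.8% and TTCNNNGAA for STAT in 8.3%. The 250 bases upstream of the start are printed below, 5′ to 3′ on the strand of the gene, for the tested members with a match, and capitals mark the matches. Those of Myb lie at chr10:21160985-21161234 (minus strand), of Cd34 at chr1:194938571-194938820 (plus), of Cd33 at chr7:43533172-43533421 (minus) and of Meis1 at chr11:19018970-19019219 (minus).
Myb: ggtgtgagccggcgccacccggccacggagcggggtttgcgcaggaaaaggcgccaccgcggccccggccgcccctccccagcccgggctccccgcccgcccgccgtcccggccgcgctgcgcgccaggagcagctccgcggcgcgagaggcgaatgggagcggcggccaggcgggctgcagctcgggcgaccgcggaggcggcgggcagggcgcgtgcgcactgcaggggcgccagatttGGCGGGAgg
Cd34: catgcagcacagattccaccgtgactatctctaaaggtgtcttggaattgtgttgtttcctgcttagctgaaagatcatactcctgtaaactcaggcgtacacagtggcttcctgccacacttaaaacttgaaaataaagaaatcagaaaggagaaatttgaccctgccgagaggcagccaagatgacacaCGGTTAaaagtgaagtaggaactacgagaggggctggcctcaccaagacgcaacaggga
Cd33: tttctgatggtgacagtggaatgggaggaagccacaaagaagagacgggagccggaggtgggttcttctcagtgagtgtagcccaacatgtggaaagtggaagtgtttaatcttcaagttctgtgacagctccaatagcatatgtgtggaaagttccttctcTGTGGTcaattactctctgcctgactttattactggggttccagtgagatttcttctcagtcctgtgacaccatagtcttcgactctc
Meis1: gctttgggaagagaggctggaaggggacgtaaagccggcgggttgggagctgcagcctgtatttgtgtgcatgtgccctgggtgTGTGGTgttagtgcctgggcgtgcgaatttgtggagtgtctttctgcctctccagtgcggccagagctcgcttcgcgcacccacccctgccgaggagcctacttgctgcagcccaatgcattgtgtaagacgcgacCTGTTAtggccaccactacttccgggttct
The Myb promoter, with 81.2% G and C the richest of these in both, held an E2F match at position -9, counted from the annotated start. That of Cd34 (46.4% G and C) held a MYB match at -59, that of Cd33 a RUNX match at -88, and that of Meis1 a MYB match at -30 and a RUNX match at -166. A match describes letters in a window and is not a binding site, and motifs as common as these occur in many promoters. No match to any of the motifs was found in the windows of Sox4, Hoxa9 and Flt3, and both listed windows of Kit held an E2F match.

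Below detection is used here for a group whose 3 libraries together held 3 counts or fewer, which is also the limit that a count of 0 allows (0.286 to 0.386 CPM over a group). By that measure 1 gene of 9 was below detection in any group. Under TSLP, Kit gave 3 counts over the immature and 1 over the mature libraries, and each IL-3 group held only 5. The other 8 genes were above this limit in all 4 groups, although several were close to it. Sox4 held 5 counts in IL-3 mature, Flt3 6 in each IL-3 group, Cd33 9 in IL-3 immature and Hoxa9 10 in TSLP mature cells.

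**Figure D1:**
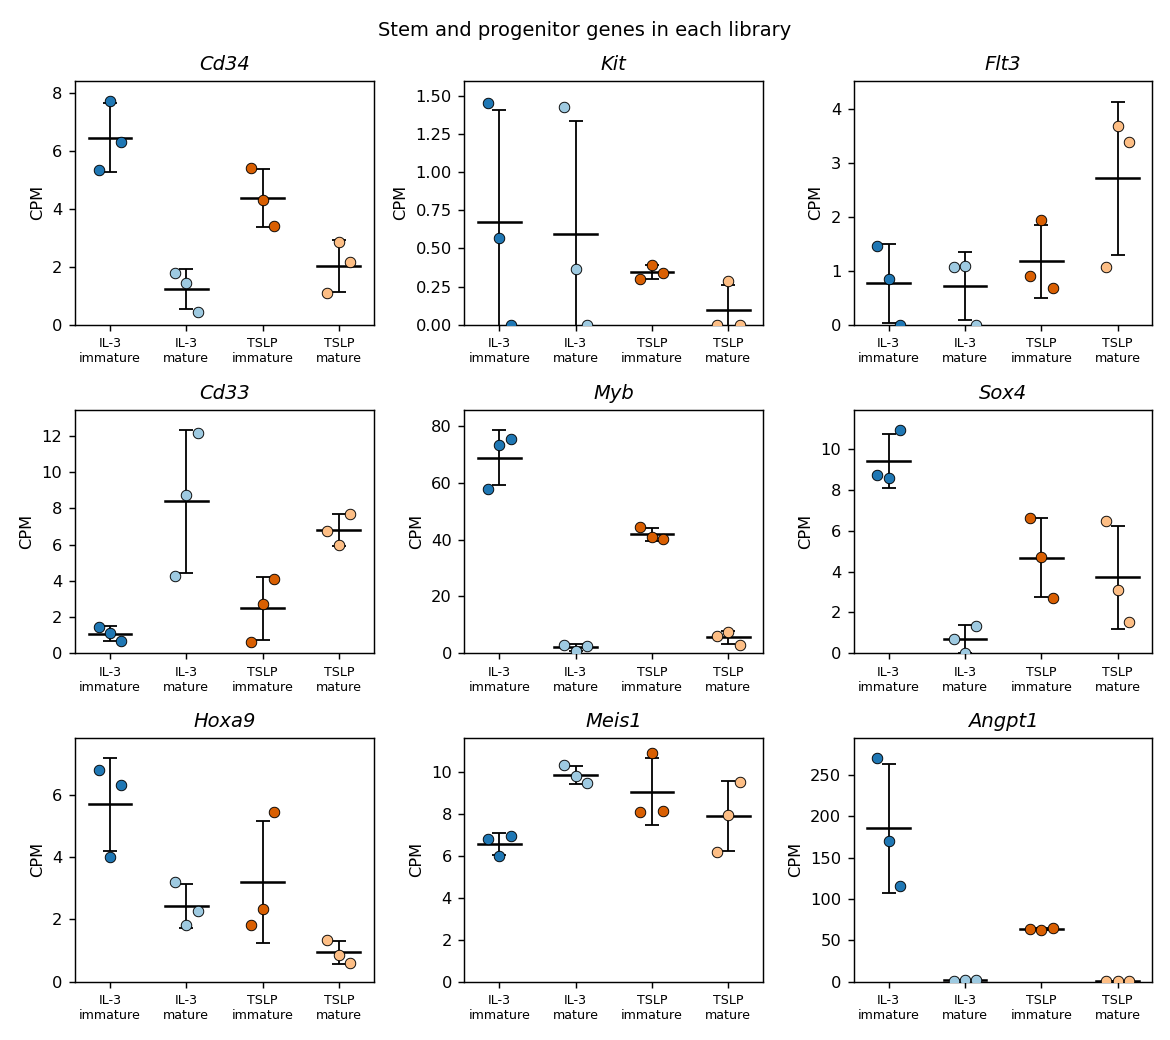
Depth-scaled counts (CPM, linear axes from 0, a separate scale for each gene) of the 9 progenitor genes in each of the 12 libraries, with points for libraries, lines for the group mean and bars for the SD (n = 3, lower ends under 0 not drawn). Angpt1 falls to near 0 in both mature groups, Myb and Sox4 do so in IL-3 mature cells only, and Cd33 is higher in mature cells. Myb is at 3.08 to 7.38 CPM in TSLP mature libraries, below all immature ones.

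Among the surface molecules, Cd34 (chr1:194938819-194961279 in GRCm38, plus strand) was low throughout and lower in mature cells. With IL-3 the immature libraries had 5.34, 7.71 and 6.29 CPM and the mature ones 1.78, 1.46 and 0.451 CPM. In the TSLP culture the levels were 5.41, 4.30 and 3.4 CPM in immature and 1.08, 2.84 and 2.15 CPM in mature libraries. The groups did not overlap in either culture. Summed over libraries, the level was 5.16-fold higher in immature cells with IL-3 (95% exact binomial interval 2.61 to 11.3, counting error only, as for all intervals of ratios here) and 2.21-fold with TSLP (1.27 to 3.95).

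Kit (chr5:75574916-75656722, plus strand), which is the receptor for stem cell factor, gave 0 to 4 counts per library. With IL-3 it had 3, 2 and 0 counts in immature and 4, 1 and 0 in mature libraries, or 5 in each group (ratio 0.905, interval 0.208 to 3.93). With TSLP it had 1 count in every immature library and 0, 1 and 0 in mature libraries, too few for a ratio. Since the study gated the cells as c-Kit-, a low Kit level is what the sort selected and is no finding, and a loss between the sorted stages was not detectable at this depth.

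Flt3 (chr5:147330741-147400489, minus strand), the receptor of early lymphoid and myeloid progenitors, was as sparse with IL-3, at 3, 3 and 0 counts in both the immature and the mature libraries. TSLP libraries held 3, 5 and 2 counts in immature and 4, 13 and 11 in mature cells. The highest levels, 3.69 and 3.38 CPM, were those of TSLP mature libraries 2 and 3, while library 1 had 1.08 CPM and overlapped with the immature cells. The ratio of immature to mature cells was 0.424 with TSLP (0.184 to 0.900), the opposite of a loss. Dendritic cells also use Flt3. A list of 6 dendritic cell genes summed to 6.48 to 8.0 CPM in TSLP mature and 1.32 to 5.34 CPM in all other libraries. Flt3 is itself in this sum, at 2.72 ± 1.43 CPM in TSLP mature cells, so the sum is no separate measure. Of the other genes, Cd209a had counts in TSLP mature cells alone (1.65 ± 1.10 CPM), and Clec9a was at 0 in all 12 libraries. Siglech was at 1.03 ± 0.808 CPM in TSLP mature against 0.509 ± 0.181 CPM in IL-3 mature cells. Xcr1 (1.33 ± 0.574 against 2.61 ± 0.513 CPM) and Zbtb46 (0.554 ± 0.48 against 0.720 ± 0.624 CPM) ran the other way. The part of dendritic cells in the Flt3 level was not tested.

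Cd33 (chr7:43524216-43544428, minus strand) was higher in mature cells. With IL-3 it stood at 1.46, 1.14 and 0.662 CPM in the immature against 4.27, 8.74 and 12.2 CPM in the mature libraries. In the TSLP culture it was 0.601, 2.73 and 4.09 CPM in immature and 6.75, 5.96 and 7.69 CPM in mature libraries. No immature library reached a mature one of its culture. Mature over immature, the level was 7.73-fold higher with IL-3 (3.82 to 17.7) and 2.85-fold with TSLP (1.73 to 4.88), so this gene does not belong among those lost. The summed level of 6 macrophage markers, cells that use Siglecs too, was 11.6 to 36.4 CPM in immature and 104 to 173 CPM in mature IL-3 libraries, with 2 of the 6 called. For TSLP it was 57.4 to 69.8 and 235 to 317 CPM, with 6 of 6 called (edgeR). Adgre1 made up most of the sum except in IL-3 immature cells. It was at 4.04 ± 1.15 CPM in immature and 93.8 ± 17.4 CPM in mature cells with IL-3. With TSLP it was at 51.4 ± 6.71 and 195 ± 21.0 CPM. From immature to mature cells with IL-3, C1qa went from 3.75 to 1.94 CPM and C1qc from 2.31 to 2.18 CPM. C1qb, Mrc1 and Cd68 had higher means in IL-3 mature cells. The part of macrophages in the Cd33 level was not tested.

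Of the transcription factors, Myb (chr10:21124935-21160984, minus strand), which sustains proliferation of progenitors of many blood lineages, had the widest difference in both cultures. After IL-3 the immature libraries had 57.7, 73.4 and 75.5 CPM and the mature ones 2.85, 0.729 and 2.71 CPM. The TSLP libraries had 44.5, 41.0 and 40.2 CPM in immature and 6.21, 7.38 and 3.08 CPM in mature cells. The 4 groups were separate from each other in the order IL-3 immature, TSLP immature, TSLP mature and IL-3 mature. The ratio of immature to mature cells was 34.2 with IL-3 (20.9 to 60.2) and 7.47 with TSLP (5.66 to 10.01).

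Sox4 (chr13:28948919-28953713, minus strand), an HMG box factor of progenitors and developing B cells, differed between the stages with IL-3 and overlapped with TSLP. It was at 8.73, 8.57 and 10.9 CPM in IL-3 immature libraries, and at 0.712, 0 and 1.35 CPM in IL-3 mature ones. With TSLP it was at 6.61, 4.69 and 2.72 CPM in immature and 6.48, 3.12 and 1.54 CPM in mature libraries, which overlapped. The ratio was 14.7 with IL-3 (6.03 to 46.4) and 1.25 with TSLP (0.790 to 1.97). The TSLP mature library with the highest Sox4 level was library 1, which also held the most B lineage transcript. Without it the fitted log2 difference between TSLP immature and mature cells was 1.09 in place of 0.32, and the part of B lineage cells in it was not tested. An antisense transcript, Gm26735, overlaps 54.6% of the exon bases of Sox4, and if reads were counted without regard to strand, both cannot be told apart. Gm26735 had no row, so its level is not known. Antisense overlaps of 2.03% to 14.2% of exon bases were found for Cd34, Myb, Meis1 and Angpt1 as well.

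Hoxa9 (chr6:52223100-52231089, minus strand), a homeobox factor of stem and myeloid progenitor cells, was lower in mature cells. IL-3 cultures gave 6.79, 4.0 and 6.29 CPM in immature against 3.21, 1.82 and 2.25 CPM in mature libraries. TSLP immature libraries had 1.80, 2.34 and 5.45 CPM and TSLP mature ones 1.35, 0.851 and 0.615 CPM. The groups were separate in both cultures, by a narrow gap in each. The ratio was 2.24 with IL-3 (1.29 to 4.04) and 3.33 with TSLP (1.57 to 7.68). TSLP immature library 3 carried much of the latter, since the fitted log2 difference was 1.17 without it and 1.70 with it.

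Meis1 (chr11:18879817-19018985, minus strand), the DNA-binding partner of HOXA9, did not follow it. After IL-3 it was at 6.79, 6.00 and 6.95 CPM in immature and 10.3, 9.84 and 9.47 CPM in mature libraries, and thus higher in mature cells (ratio of immature to mature 0.658, interval 0.458 to 0.941). With TSLP the libraries of both stages overlapped, at 8.12, 10.9 and 8.17 CPM in immature and 6.21, 7.94 and 9.54 CPM in mature cells (1.14, 0.830 to 1.58). Of the 50-base stretches of its transcripts, 9.16% occurred in transcripts of other genes, against less than 1% for each of the other 8 genes, so some of its reads could be shared.

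Angpt1 (chr15:42424723-42676977, minus strand), which codes for a secreted ligand, showed the largest difference of the 9 genes and was chosen for it. With IL-3 it stood at 269.7, 170.3 and 116 CPM in immature libraries and at 0.712, 1.82 and 2.25 CPM in mature ones. TSLP immature libraries had 63.7, 62.1 and 64.7 CPM and TSLP mature ones 1.35, 0.851 and 1.23 CPM. Both immature groups stood far above both mature groups, and the 3 TSLP immature libraries lay below all 3 IL-3 immature ones. The ratio of immature to mature cells was 113 with IL-3 (64.7 to 219.8) and 55.5 with TSLP (31.5 to 108).

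Over the list, 5 of 9 genes were higher in all immature than in all mature IL-3 libraries and 2 were lower, where the same held for 27.8% and 30.0% of the 10861 tested genes. With TSLP, 5 genes were higher, among them Kit on 3 counts against 1, and 1 was lower, against 17.9% and 20.4% of tested genes. Nothing is read from these counts, since the difference helped to choose the genes. Among the 7 tested members, the fitted stage difference with TSLP minus that with IL-3 was -3.46 ± 0.87 log2 units for Sox4, -2.14 ± 0.48 for Myb, -1.21 ± 0.67 for Cd34 and -1.11 ± 0.71 for Angpt1 (SE). Leaving out 1 library moved the Sox4 value to -4.22 (without IL-3 mature library 3) and -2.74 (without TSLP mature library 1), and gave -0.84 to -1.54 for Cd34 and -0.70 to -1.38 for Angpt1. For Hoxa9 the value was 0.52 ± 0.72, which turned to -0.07 without TSLP immature library 3. For Meis1 and Cd33, whose difference ran from immature below mature with IL-3, it was 0.79 ± 0.37 and 1.45 ± 0.81 log2 units, the latter with a range of 0.88 to 1.96 over left-out libraries.

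**Figure D2:**
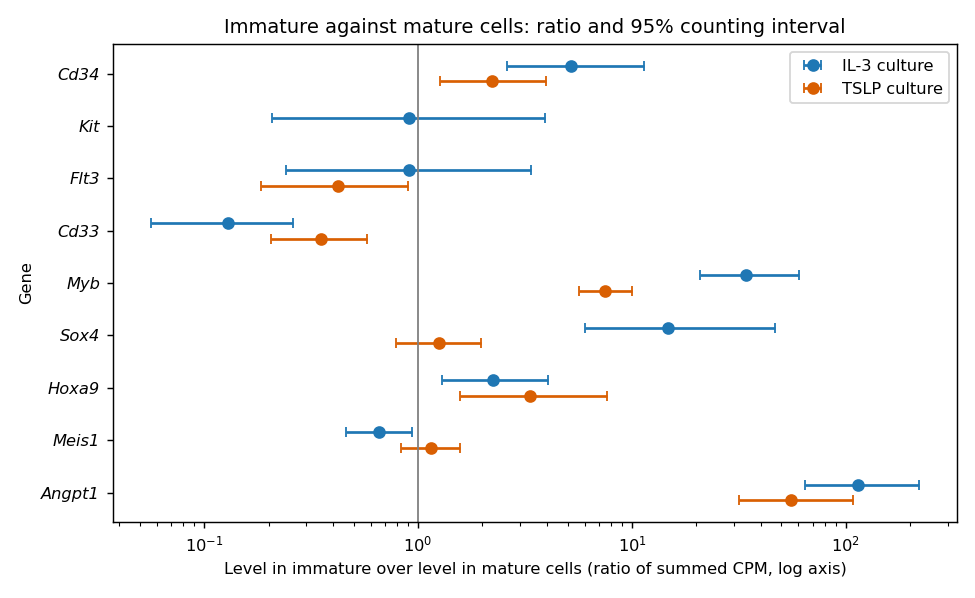
Ratio of the summed CPM in immature to that in mature cells (log axis, 1 means equal) in the IL-3 and TSLP cultures, with 95% exact binomial intervals for counting error only. Kit is not drawn for TSLP (3 against 1 counts). Angpt1, Myb, Cd34 and Hoxa9 lie above 1 in both cultures, Sox4 is 14.7 with IL-3 and 1.25 with TSLP, and Cd33 lies below 1 in both.

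Other transcripts of cycling and immature cells moved with these genes. The summed level of 12 proliferation genes (among them Mki67, Top2a and Cdk1) was 2127 to 2260 CPM in IL-3 immature, 1583 to 1629 in TSLP immature, 259 to 291 in TSLP mature and 104 to 116 CPM in IL-3 mature libraries, which is the order of the groups for Myb. All 12 were higher in immature cells in each culture at an adjusted p under 0.05 (edgeR). The summed level of 5 granule genes of myeloid progenitors (Mpo, Elane, Prtn3, Ctsg and Ms4a3) was 1536 to 3300.1 CPM in immature and 68.7 to 196 CPM in mature libraries. Of these, 4 could be tested, and 3 were called higher in immature cells in each culture (edgeR). Prtn3 was at 12.2 ± 3.20 CPM in immature and 4.93 ± 0.588 CPM in mature cells with IL-3. With TSLP it was at 4.45 ± 0.929 and 10.6 ± 14.0 CPM. The part of dividing cells or of residual progenitors in the levels of Myb, Angpt1, Cd34, Sox4 and Hoxa9 was not tested.

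Levels can be compared between genes only per length of transcript, and then as CPM per kb of exon, under the assumption that reads came from all along the transcripts. In IL-3 immature cells Angpt1 led with 35.6 ± 14.99 CPM per kb (mean ± SD, n = 3 here and below), before Myb with 7.71 ± 1.09 and Sox4 with 1.96 ± 0.274. Hoxa9 (1.02 ± 0.267), Cd34 (0.884 ± 0.164) and Meis1 (0.625 ± 0.0485) followed, and the neighbours Hoxa9 and Cd34 were closer than their spread. Angpt1 and Myb also led in TSLP immature cells, with 12.2 ± 0.249 and 4.69 ± 0.257 CPM per kb. In mature cells the order was another. Cd33 and Meis1 led after IL-3 (1.08 ± 0.51 and 0.938 ± 0.0409 CPM per kb), and Cd33, Sox4, Meis1 and Myb led after TSLP at 0.622 to 0.875 CPM per kb, each within the spread of its neighbour. Kit was last in all 4 groups, at 0.0106 to 0.0758 CPM per kb.

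TSLP was then compared with IL-3 at each stage, to see whether progenitor genes differed in cells sorted by the same markers. The cells were not otherwise matched. Itga2, which codes for the sort marker CD49b, was at 86.4 ± 4.23 CPM with TSLP and 27.3 ± 4.35 CPM with IL-3 in immature cells. In mature cells it was at 168 ± 61.9 and 247 ± 59.2 CPM. This comparison did not choose the genes, but its groups are the same libraries, and earlier results of these data were known. Angpt1 was chosen by its counts in them. The p values of the members are therefore no independent test. The comparison used the quasi-likelihood test of edgeR, with p values adjusted by the Benjamini-Hochberg method over all 10861 genes. In immature cells 1 of the 7 tested members passed an adjusted p of 0.05, where 7.38% of all tested genes were higher and 5.90% lower with TSLP. In mature cells 2 passed, against 12.4% higher and 11.9% lower among all tested genes. These shares of the members are thus near those of all genes. Ribosomal RNA moved with the cytokine in immature cells, at 30.0% to 33.9% of counts with TSLP against 13.1% to 22.2% with IL-3, and was 14.7% to 28.7% against 18.4% to 21.9% in mature cells. Its part in the differences was not tested.

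In immature cells, Angpt1 was lower with TSLP, at 63.5 ± 1.30 CPM against 185 ± 78.0 CPM with IL-3. The log2 fold change was -1.54 ± 0.25 (SE, adjusted p = 0.000928), and the level was 2.75-fold lower (2.50 to 3.04), with every TSLP library below every IL-3 one. The call stayed past the threshold in all 18 alternatives of processing and left-out libraries, with an adjusted p of at most 0.00658. Myb was at 41.9 ± 2.29 against 68.9 ± 9.71 CPM, a log2 fold change of -0.72 ± 0.23 with an adjusted p of 0.0517, which just missed the threshold. It passed in 9 of 18 alternatives, DESeq2 (0.0156) among them, over which its adjusted p ran from 0.0152 to 0.155. Sox4 libraries did not overlap either, but its log2 fold change of -0.99 ± 0.47 did not pass (adjusted p = 0.179, edgeR). Cd34, Hoxa9, Meis1 and Cd33 gave log2 fold changes of -0.57 ± 0.39, -0.80 ± 0.44, 0.46 ± 0.27 and 1.16 ± 0.68, with adjusted p values of 0.251 to 0.364 (edgeR).

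In mature cells, Myb and Sox4 were higher with TSLP. Myb was at 5.55 ± 2.22 CPM against 2.09 ± 1.19 CPM with IL-3, a log2 fold change of 1.42 ± 0.42 (edgeR adjusted p = 0.0226) and a level 2.73-fold higher (1.55 to 5.09). Each TSLP library lay above each IL-3 library. The call was lost without IL-3 mature library 2 (log2 fold change 0.94, adjusted p = 0.139), without TSLP mature library 1 (1.26, 0.0571) and without TSLP mature library 2 (1.13, 0.0962). Proliferation genes moved the same way, and 10 of the 12 were higher in TSLP than in IL-3 mature cells by the same test.

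Sox4 was at 3.71 ± 2.52 CPM with TSLP against 0.688 ± 0.677 CPM with IL-3 in mature cells, with a log2 fold change of 2.46 ± 0.73 (edgeR adjusted p = 0.0235). The level was 5.93-fold higher on 40 against 5 counts (2.34 to 19.3). All TSLP libraries were above all IL-3 ones, the lowest being 1.54 CPM against a highest IL-3 value of 1.35 CPM. The call was lost without TSLP mature library 1, where the log2 fold change was 1.72 and the adjusted p 0.112, and also without IL-3 mature library 1 (2.54, 0.0652) or 2 (1.82, 0.116). B lineage markers were higher here as well, at 14.8 to 136 CPM with TSLP against 2.14 to 2.55 CPM with IL-3, and both B lineage genes that could be tested were called. The part of such cells was not tested.

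The other 5 tested members did not pass in mature cells. Hoxa9 came nearest, at 0.939 ± 0.375 CPM with TSLP against 2.43 ± 0.708 CPM with IL-3 (log2 fold change -1.32 ± 0.59, edgeR adjusted p = 0.112), with no overlap between libraries. The values for Cd34, Angpt1, Meis1 and Cd33 were 0.64 ± 0.55, -0.42 ± 0.64, -0.33 ± 0.26 and -0.28 ± 0.44, with adjusted p values of 0.379 to 0.672 (edgeR). Angpt1, lower with TSLP in immature cells, had 12 counts in each mature group, where a ratio of 0.741 had a wide interval of 0.305 to 1.80. Flt3, which was not tested, had 28 counts with TSLP against 6 with IL-3 at the mature stage, 3.46-fold more per library size (1.41 to 10.2), with overlapping libraries.

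**Figure D3:**
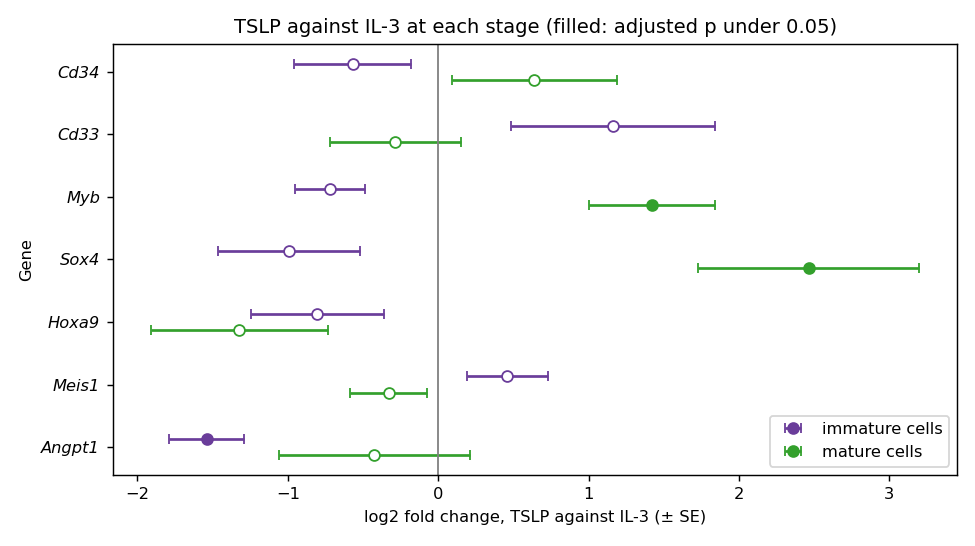
Fitted log2 fold change of TSLP against IL-3 in immature and in mature cells for the 7 tested genes, with bars for the SE. Filled points passed an adjusted p of 0.05 (edgeR): Angpt1 at -1.54 in immature cells, and Myb at 1.42 and Sox4 at 2.46 in mature cells.

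To describe other progenitor genes beside the members, 68 further genes in 4 lists were examined, none of them a member. The name is used for short, since 20 of them were listed as relatives, ligands or receptors of the members. Some others, such as Csf1r and Csf3r, are also genes of macrophages and neutrophils. These lists were chosen with earlier results of these data known. Their counts of calls beside all tested genes are therefore a description and no independent test. Of these, 34 were expressed enough to be tested, and 15 held 3 counts or fewer in every group. Most of those that changed were higher in mature cells. With IL-3, 4 of 34 were higher and 16 lower in immature cells, where 22.1% of all tested genes were higher and 24.1% lower. With TSLP, 2 were higher and 12 lower, against 12.2% and 12.9% of all tested genes. The median log2 fold change of the 34 genes was -0.40 with IL-3 and -0.35 with TSLP, and that of all tested genes was -0.06 and -0.03. In both cultures 11 genes were called lower in immature cells and 1 higher. There were 20 genes called in some comparison with a group mean of at least 5 CPM, and 19 of them are described below. Another 3 were called below that level and are named here, outside the rule and after their values were seen: Gfi1, Pbx3 and Eng. Eng was at 4.45 ± 1.34 CPM in immature and 0.831 ± 1.44 CPM in mature cells with IL-3, and at 2.88 ± 0.892 and 0.755 ± 0.586 CPM with TSLP. Gfi1 was at 1.34 ± 0.715 CPM in immature and 4.80 ± 1.22 CPM in mature cells with IL-3, and at 2.25 ± 1.08 and 2.87 ± 0.563 CPM with TSLP.

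Of 18 stem and progenitor transcription factors, 14 were tested. In IL-3 cultures 2 were higher and 5 lower in immature cells, and in TSLP cultures 0 were higher and 4 lower (edgeR). Tal1, a helix-loop-helix factor of stem and erythroid cells, was at 46.8 ± 10.7 CPM in immature and 211 ± 7.15 CPM in mature cells after IL-3, and at 66.9 ± 2.74 and 153 ± 9.02 CPM after TSLP. The log2 fold changes, immature against mature, were -2.16 ± 0.18 (edgeR adjusted p = 7.86e-08) with IL-3 and -1.20 ± 0.17 (9.04e-05) with TSLP. Hhex, a homeobox factor of early progenitors, was also lower in immature cells, by log2 fold changes of -1.66 ± 0.20 and -0.92 ± 0.19, and so was Spi1 (PU.1), a myeloid factor, by -1.17 ± 0.16 and -0.51 ± 0.16. The Spi1 call with TSLP (edgeR adjusted p = 0.0276) was lost in 13 of 18 alternatives, over which the adjusted p ran from 0.0222 to 0.163. Without TSLP mature library 1, Spi1 gave -0.29 (edgeR adjusted p = 0.154) and Lyl1 -0.49 (0.0442) between the TSLP stages. Gata2, which acts in stem cells and in basophils and mast cells, was lower in immature cells after IL-3 (-0.73 ± 0.18) and gave -0.42 ± 0.18 after TSLP, where it did not pass. Lyl1, a relative of Tal1, was lower after TSLP (-0.78 ± 0.20) and gave -0.48 ± 0.21 after IL-3. The 2 that were higher in IL-3 immature cells were Erg (0.75 ± 0.23) and Etv6 (0.71 ± 0.19), both ETS family factors. The IL-3 call of Erg and the TSLP call of Lyl1 were each lost in 2 of 18 alternatives.

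HOX genes and their TALE partners gave 6 tested genes of 14, of which 0 were higher and 4 lower in IL-3 immature cells, while 1 was higher and 2 lower in TSLP immature cells. Hoxb3 stood with IL-3 at 0.748 ± 0.594 CPM in immature and 6.61 ± 2.11 CPM in mature cells, a log2 fold change of -2.95 ± 0.50 (edgeR adjusted p = 0.000166), and gave -1.51 ± 0.39 with TSLP (0.00946). The TSLP call of Hoxb3 was lost in 1 of 17 alternatives. Its neighbour Hoxb4 was called with IL-3 (-0.88 ± 0.33) and gave -0.08 ± 0.32 with TSLP, and the call was lost in 12 of 17 alternatives (adjusted p 0.0209 to 0.240, edgeR and DESeq2). Pbx2 was lower in immature cells in both cultures (-0.82 ± 0.19 and -0.61 ± 0.19), although the TSLP call was lost in 12 of 18 alternatives, with -0.33 (edgeR adjusted p = 0.172) without TSLP mature library 1. The gene that was higher in TSLP immature cells was Pbx3 (1.67 ± 0.58, edgeR adjusted p = 0.0443).

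Among 16 surface molecules of stem and progenitor cells, 9 were tested, and 1 was higher and 5 lower in IL-3 immature cells and 0 higher and 5 lower in TSLP immature cells. Ly6a (Sca-1) was at 1.14 ± 0.805 CPM in immature and 8.27 ± 2.87 CPM in mature cells after IL-3, with a log2 fold change of -2.91 ± 0.64, and at 1.44 ± 0.874 against 14.0 ± 8.96 CPM with TSLP (-3.32 ± 0.57). With a library left out, the TSLP value of Ly6a ran from -3.77 to -2.56. Adgrg1 (-0.78 ± 0.16 and -1.01 ± 0.16) and Cd244 (-1.03 ± 0.17 and -0.59 ± 0.17) followed. The TSLP call of Cd244 was lost in 4 of 18 alternatives. The receptors for the myeloid growth factors M-CSF and G-CSF, Csf1r and Csf3r, were lower in immature cells too, by -1.42 ± 0.35 and -1.38 ± 0.54 with IL-3 and by -1.89 ± 0.32 and -2.99 ± 0.64 with TSLP. The IL-3 call of Csf3r was lost in 13 of 17 alternatives. These are also genes of macrophages, whose summed markers are given above, and of neutrophils. The 8 neutrophil markers summed to 160.2 to 189 CPM in immature and 292 to 416 CPM in mature cells of the IL-3 culture. With TSLP they summed to 107 to 159 CPM in immature cells and to 781, 46.0 and 38.8 CPM in mature libraries 1, 2 and 3. Most of the TSLP immature sum was Lcn2, at 110 ± 9.54 CPM. Of the 8 markers, 1 was called higher and 2 lower in immature cells with IL-3, and 1 higher and 6 lower with TSLP (edgeR). The 6 macrophage markers rose from TSLP immature to TSLP mature cells in 6 of 6 cases, and Csf3r was highest, at 15.9 CPM, in TSLP mature library 1, without which its log2 fold change with TSLP was -2.02 (edgeR adjusted p = 0.0138). The part of such cells was not tested. Itga2b, a megakaryocyte and progenitor integrin that mast cells and basophils carry as well, did not pass between stages.

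The last list held 20 relatives, ligands and receptors of the 9 genes, of which 5 were tested. Mybl2, the MYB relative of dividing cells, was the 1 gene of all 4 lists called higher in immature cells in both cultures, at 27.8 ± 3.77 against 0.778 ± 0.368 CPM with IL-3 and 14.96 ± 3.82 against 2.27 ± 0.641 CPM with TSLP. Its log2 fold changes were 5.10 ± 0.39 and 2.69 ± 0.32 (edgeR adjusted p = 3.14e-08 and 1.24e-05). Siglecf, a Siglec like Cd33, was lower in immature cells, by -2.14 ± 0.27 and -2.41 ± 0.24, as was Flt3l, the ligand of FLT3, by -1.10 ± 0.23 with IL-3. With TSLP Flt3l gave -0.58 ± 0.21 (adjusted p = 0.053, edgeR). Of the partners of the 2 sparse receptors and of Angpt1, Kitl, Tek, Tie1, Angpt2 and Angpt4 had between 0 and 3 counts in every group, which is below detection.

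**Figure D4:**
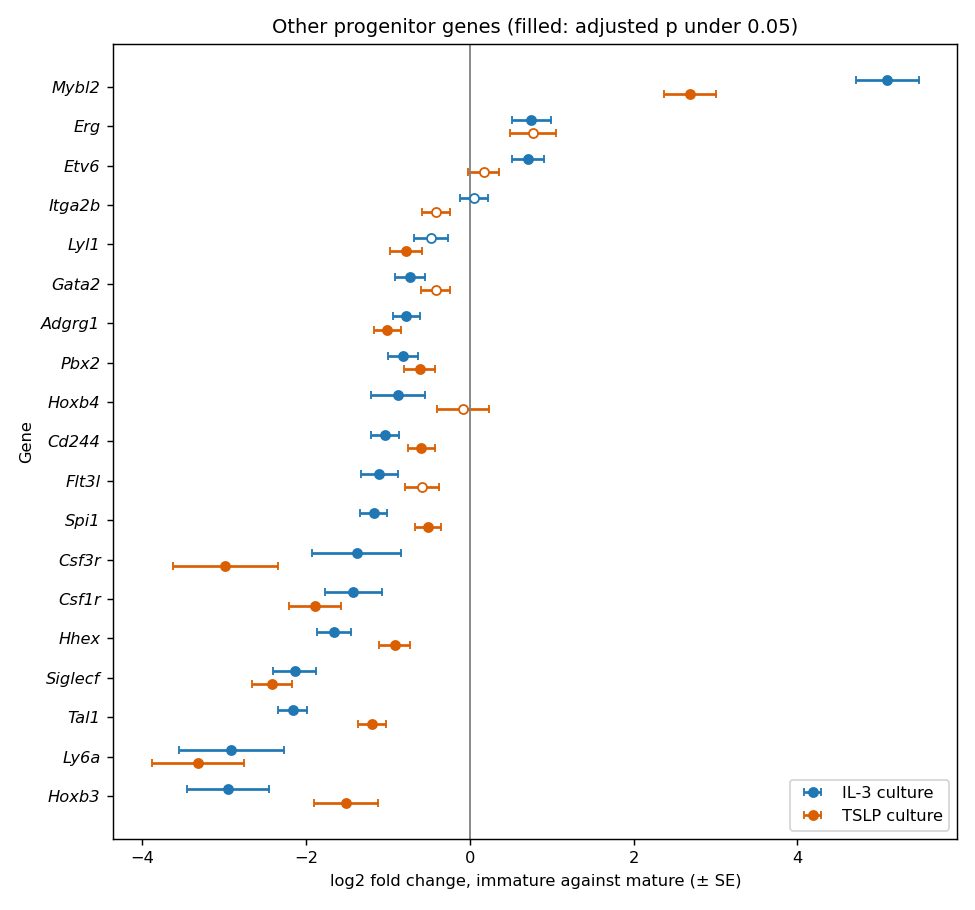
Fitted log2 fold change of immature against mature cells (± SE) in the IL-3 and TSLP cultures for 19 other progenitor genes named in the text, ordered by the IL-3 value. Filled points passed an adjusted p of 0.05 (edgeR). Mybl2 stands at the top with 5.10 and 2.69, and most others lie below 0, that is, higher in mature cells.

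The cytokine was then compared in the same 34 genes. In immature cells 4 were higher and 2 lower with TSLP, and in mature cells 6 were higher and 3 lower (edgeR, shares of all genes as above), with a median log2 fold change of 0.27 and 0.06 against 0.04 and 0.09 over all tested genes. Erg was lower with TSLP at both stages, from 26.3 ± 7.07 to 9.15 ± 0.411 CPM in immature cells (log2 fold change -1.50 ± 0.24, edgeR adjusted p = 0.000951) and from 15.4 ± 3.07 to 5.37 ± 0.697 CPM in mature cells (-1.52 ± 0.27, 0.00125). Mybl2, like Angpt1, was lower with TSLP in immature cells (-0.89 ± 0.24, adjusted p = 0.0242). In mature cells it gave 1.51 ± 0.54 (edgeR adjusted p = 0.0497), a call lost in all 18 alternatives. Higher with TSLP in immature cells were Hhex (0.70 ± 0.21), Spi1 (0.52 ± 0.16), Cd244 (0.75 ± 0.17) and Flt3l (0.84 ± 0.23). In mature cells these were Lyl1 (0.77 ± 0.20), Etv6 (0.57 ± 0.19), Adgrg1 (0.48 ± 0.16), Itga2b (0.64 ± 0.17) and Siglecf (0.69 ± 0.21) besides Mybl2, while Pbx2 (-0.54 ± 0.18) and Pbx3 (-2.20 ± 0.56) were lower. Of 18 alternatives each, the Spi1 call was lost in 15, that of Adgrg1 in 14, that of Etv6 in 12, that of Hhex in 7, that of Siglecf in 5 and that of Cd244 in 1. Those of Flt3l and of Mybl2 in immature cells were lost in 4 each, that of Pbx2 in 6, that of Itga2b in 3 and that of Lyl1 in 2. Without TSLP mature library 1 the mature values were 0.50 for Lyl1 (edgeR adjusted p = 0.0494), -0.81 for Pbx2 (0.00288) and 0.42 for Adgrg1 (0.0609).

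The stage difference itself was tested for a dependence on the cytokine in the 34 genes, and 2 passed where 4.19% of all tested genes did. Tal1 had a smaller difference with TSLP (0.97 ± 0.24 log2 units towards immature cells, edgeR adjusted p = 0.0335), and Mybl2 a smaller one in the other direction (-2.41 ± 0.58, 0.0283). The Tal1 call was lost in 10 and the Mybl2 call in 6 of 18 alternatives. For Myb, which was not tested in this way, the value was -2.14 ± 0.48.

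Finally, the genes whose log2 CPM ran most like each tested member over the 12 libraries were found by Pearson correlation, as a description, since the libraries fall into 4 groups and share the depth of each library. Myb was most like Traip (r = 0.994), Nusap1 (0.99) and Bub1b (0.99), and Angpt1 most like Nucks1 (0.993), Cenpf (0.992) and Arsb (0.988). Cd34 was most like Wee1 (0.972), Gspt1 (0.963) and Carnmt1 (0.962). For Sox4 the first was 3110082I17Rik (0.962), for Hoxa9 Thy1 (0.958), for Cd33 N4bp2l1 (0.961) and for Meis1 Tanc2 (0.888). Traip, the gene nearest to Myb, was at 16.4 ± 1.17, 0.778 ± 0.368, 12.3 ± 1.01 and 1.89 ± 0.32 CPM in immature and mature IL-3 cells and in immature and mature TSLP cells. Within the list, Myb and Angpt1 were closest (r = 0.932), and Cd33 ran against Cd34 (r = -0.909), Myb (-0.873) and Angpt1 (-0.835).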

How the data were processed

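The deposited file is a single table of counts for 12 libraries, unnormalized, with genes given by symbol. By the study's account, the authors trimmed adapters (Cutadapt) and aligned reads to GRCm38 transcripts (Bowtie2). The submitters' processing notes name GRCm39 and mm10. Use of strand or of molecular identifiers is not given in the sources used here. A row with no name held the column totals, 50% of each column, and was dropped, and 0 columns were unmapped. Ribosomal RNA means Rn45s and Rn18s.

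Tests used the quasi-likelihood test of edgeR 4.0.16 in R 4.3.3, with TMM scaling, filterByExpr (minimum count 10, minimum total 15), 1 mean per group over 12 libraries and Benjamini-Hochberg adjustment over 10861 genes. The script was tested on simulated data. DESeq2 1.42.0 was an alternative. Log2 CPM used a prior count of 2. Positive log2 fold changes mean higher in the first group. Ratios are of summed counts over effective library sizes. Positions and overlaps come from GENCODE (GRCm38), promoters from RefSeq.

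The members and lists were chosen with earlier results of these data known. Named are all 9 members and, from the 4 lists, each gene called in a pairwise comparison with a group mean of at least 5 CPM, except 1 that is not reported here. Intervals and floors cover counting error only. The genes most like each member were the 3 with the highest r. Alternatives were other scalings, filters, DESeq2, a replicate block and leaving out each library.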

Additional observations from a re-analysis of the deposited data

Results flagged for a closer look

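Among the other progenitor genes, 2 had a difference between immature and mature cells that itself differed between the cultures, by the interaction test of edgeR. Tal1 was at 38.3, 58.8 and 43.4 CPM in IL-3 immature, 204, 211 and 219 CPM in IL-3 mature, 70.1, 65.2 and 65.4 CPM in TSLP immature and 150.3, 163 and 146 CPM in TSLP mature libraries. The mature cells stood higher in both cultures, and the gap was narrower with TSLP by 0.97 ± 0.24 log2 units (SE, adjusted p = 0.0335). Over the alternatives this p ran from 0.00608 to 0.0887. Mybl2 was at 25.2, 26.0 and 32.1 CPM in IL-3 immature, 1.07, 0.364 and 0.902 CPM in IL-3 mature, 17.1, 17.2 and 10.6 CPM in TSLP immature and 2.97, 1.70 and 2.15 CPM in TSLP mature libraries. Immature cells stood higher in both, and the difference with TSLP minus that with IL-3 was -2.41 ± 0.58 log2 units (edgeR adjusted p = 0.0283, range over the alternatives 0.0099 to 0.12).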

How the results depend on the processing

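Of 18 alternatives per comparison, all kept the direction of every called fold change of a member. Requiring 10 CPM in 3 libraries left only Angpt1 and Myb of the members, so 2 were higher in immature cells with IL-3 and 2 with TSLP, 2 had a smaller stage difference with TSLP, and 2 and 1 were called for the cytokine in immature and mature cells. It left 9 calls among the other progenitor genes between TSLP stages. In immature cells 2 members, Angpt1 and Myb, were called for the cytokine with the size factors of DESeq2, with the DESeq2 test, without the filter and with the replicate block. Without the filter 1 of the other progenitor genes kept an interaction. Leaving out 1 library at a time gave 1 to 2 member calls for the cytokine in immature and 0 to 2 in mature cells, where 3 had an unadjusted p under 0.05 whenever the edgeR count was 0. For the other progenitor genes it gave 8 to 14 calls between TSLP stages, 1 to 9 and 2 to 8 for the cytokine in immature and mature cells, and 0 to 2 interactions, with 6 to 7 at an unadjusted p under 0.05 where the edgeR count was 0. Between TSLP stages the lowest count came without TSLP immature library 1 (8 against 14). For the cytokine in immature cells (6 in all libraries) it was 1 without TSLP immature library 3, and 3 without IL-3 immature library 1 or 3 or TSLP immature library 2. In mature cells (9 in all libraries) it was 4, 3 and 2 without IL-3 mature libraries 1, 2 and 3, and 5 without TSLP immature library 1 or TSLP mature library 3. With a library left out, genes needed the minimum count in 2 libraries. Deviations of same-numbered libraries correlated at -0.0769 to 0.388. This cannot decide whether the numbers pair the libraries, since libraries of unlike number were not compared. The replicate block changed no call of a member other than that of Myb in immature cells (edgeR adjusted p = 0.0431). Of the 47 called changes of the list genes at 5 CPM or more it lost 1, that of Mybl2 in mature cells (0.0648). Sox4, Flt3 and Kit rest on few counts, and differences within their counting intervals were not detectable. The cause of these shifts was not tested.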
